A study of Homo sapiens with 9 samples.

Results

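The HOX cluster genes were taken as the 39 genes whose symbol is HOX, a cluster letter from A to D and a number, of 63677 gene identifiers in the count files (55665 of them with a symbol). Antisense and read-through transcripts of the clusters were left out of the members. Antisense transcripts enter a separate list of genes in or beside the clusters, and read-through transcripts are not described. HOX genes encode homeodomain transcription factors that give cells a position along the body axis. They lie in clusters in which low-numbered genes are used first and towards the head, and high-numbered genes later and towards the tail, and genes of equal number in different clusters (paralogue groups) are relatives by duplication. In adult colon the pattern of HOX use persists as a record of position, and it depends on Polycomb and Trithorax chromatin complexes, on CDX factors in the gut, and on TALE cofactors (PBX and MEIS) for DNA binding.

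The 9 poly(A) RNA-seq libraries came from SW480, an established human colon adenocarcinoma line, in 3 forms with 3 libraries each. SW480 was the unmodified parental line. SW480-B was 1 clone selected with G418 that carries BASP1 in pcDNA3, a plasmid with the CMV promoter. SW480-gRNA-B-all carried a lentiviral MS2-P65-HSF1 activator (hygromycin selection) and dCas9-VP64, was derived through a single-cell clone, and then received a pool of guide RNAs against the BASP1 promoter with puromycin selection, so that the endogenous gene was activated. No line with an empty vector or without guides was among the samples used here, so BASP1, the vectors, the selection and the cloning cannot be told apart. The RNAs were isolated in triplicate, but separate cultures are not stated, so the p-values measure the spread between these libraries, which may be technical.

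Libraries held 25238831 to 29355669 counts on genes, of which 17712 to 35217 lay on the HOX genes. Values are given in CPM (counts per 1000000, scaled with TMM factors over the 9 libraries), and 3 counts, taken as the floor, correspond to 0.102 to 0.119 CPM. BASP1 stood at 11.9, 8.03 and 0.691 CPM in SW480, at 268, 268 and 250 CPM in SW480-B and at 167, 303 and 300 CPM in SW480-gRNA-B-all. The epithelial keratins KRT8 and KRT18 were at 1653 CPM or more in every library, while the differentiated-colon genes KRT20 and LGALS4 stayed below 1 CPM. Replicates 2 and 3 of SW480-gRNA-B-all were far closer to each other (4.08% of 17075 genes over 2-fold apart) than any other pair of libraries of 1 line (14.2% to 34.9%), and results are therefore also given with these 2 libraries summed.

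The clusters lie on different chromosomes (GRCh37). HOXA, with 11 genes, spans chr7:27132612-27239710 on the minus strand. HOXB, with 10 genes, spans chr17:46605888-46806112 on the minus strand. HOXC, with 9 genes, spans chr12:54332615-54449814 on the plus strand, and HOXD, with 9 genes, spans chr2:176957449-177055635 on the plus strand. Some neighbours share exon bases in the annotation used here: 18.2% of the exon bases of HOXD10 and 21.4% of those of HOXD11 belong to both genes, and 67.3% of those of HOXC5, 31.3% of HOXA4, 16.6% of HOXB6 and 15.9% of HOXA9 belong also to another gene. Whether the counting used strand is not given in the sources used here, so reads of a HOX gene and of its antisense neighbour cannot be told apart.

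The data show a HOX-positive colon line in which HOXB genes of the middle of the cluster dominate. Of the 39 genes, 30 had a mean of at least 1 CPM in at least 1 line: 10 of 11 in HOXA, 9 of 10 in HOXB, 6 of 9 in HOXC and 5 of 9 in HOXD. HOXA2, HOXC4, HOXC5, HOXC12, HOXD1, HOXD3 and HOXD12 stayed below a mean of 1 CPM in every line. HOXC5 shares 67.3% of its exon bases with other genes, and ambiguous fragments were left out, so its level may be underestimated. HOXB1 and HOXD4 had at most 1 count in any library, which is below the floor of 3 counts, so their expression was not detectable at this depth. The members below 1 CPM come from paralogue groups 1 to 5 and from group 12, and in HOXA by contrast every gene from HOXA3 up passed that level.

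**Figure D1:**
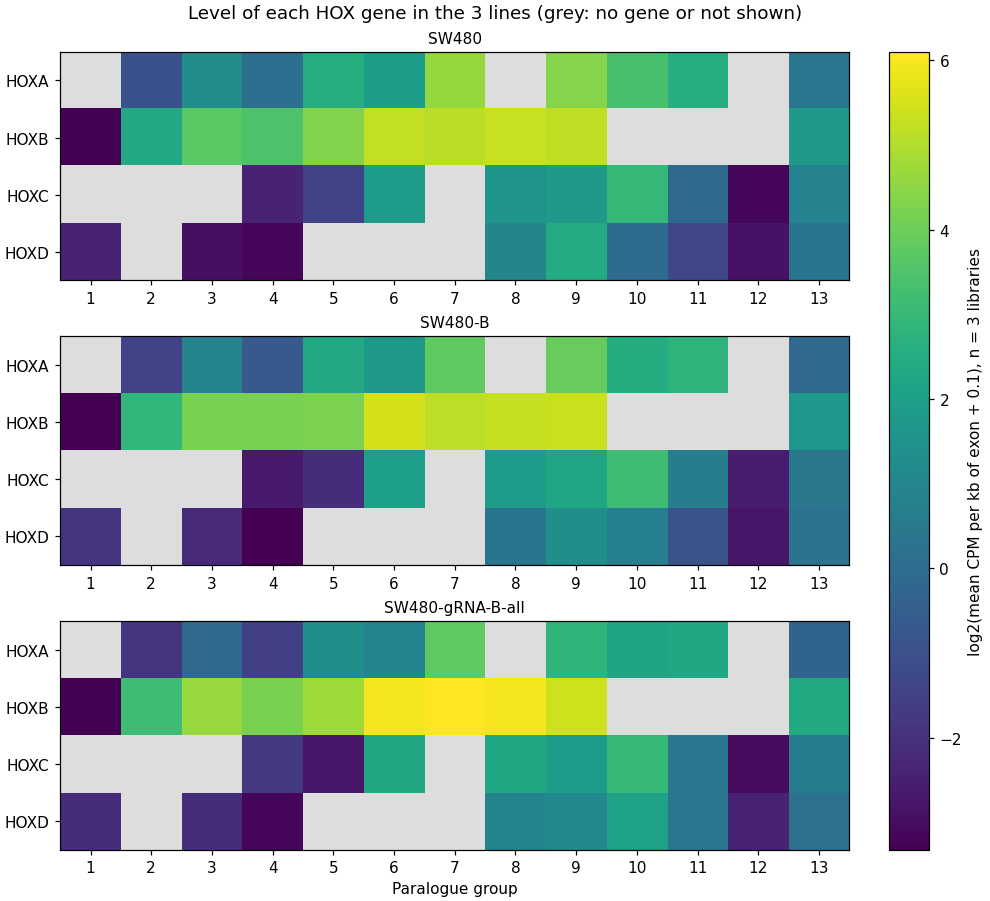
Mean level of each HOX gene by cluster (rows) and paralogue group (columns) in the 3 lines, as log2 of the mean CPM per kb of exon plus 0.1, with n = 3 libraries each and positions with no gene or no value shown in grey. HOXB6 to HOXB9 form the brightest stretch in each line, HOXA7 and HOXA9 are bright in SW480 and darker in SW480-gRNA-B-all, and HOXB1 and HOXD4 are at the dark end of the scale in the 3 lines.

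Levels of different genes were compared per kb of exon. In SW480 the order began with HOXB8 at 39.1 ± 31.3 CPM per kb (SD, n = 3), HOXB6 at 37.2 ± 17.0, HOXB9 at 37 ± 4.43 and HOXB7 at 34.6 ± 20.6, and these 4 neighbours differed by less than their spread. HOXA7 at 24.1 ± 4.01 and HOXA9 at 21.1 ± 0.968 CPM per kb followed. The first 4 places in SW480-B belonged to HOXB6 (44.6 ± 11.8 CPM per kb), HOXB9 (40.9 ± 11.5), HOXB8 (38.2 ± 13.8) and HOXB7 (35.4 ± 13.3), which again lay within their spread. The first 4 places in SW480-gRNA-B-all belonged to HOXB7 (66.9 ± 20.5 CPM per kb), HOXB8 (62.0 ± 23.4), HOXB6 (62.0 ± 14.9) and HOXB9 (42.6 ± 2.27). HOXA9 held place 6 in SW480, place 8 in SW480-B and place 11 in SW480-gRNA-B-all, at 21.1, 14.8 and 7.13 CPM per kb.

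Summed over each cluster, HOXA was lowest in SW480-gRNA-B-all. The HOXA sum was 208, 218.3 and 235.6 CPM in SW480, 179, 146 and 174.4 CPM in SW480-B, and 81.9, 127.4 and 125.6 CPM in SW480-gRNA-B-all, so the 3 lines did not overlap. As a share of all HOX counts in CPM, HOXA made up 22.5% to 34.1% in SW480, 19.6% to 19.8% in SW480-B and 10.7% to 11.1% in SW480-gRNA-B-all. HOXB, at 320.1, 474.9 and 746.2 CPM in SW480, 630, 524.2 and 655.8 CPM in SW480-B and 593, 933.1 and 970.2 CPM in SW480-gRNA-B-all, overlapped between lines and was by far the largest cluster, with shares of 52.5% to 71.4%, 69.7% to 73.7% and 77.3% to 82.5%. The HOXC sum ranged from 46.9 to 52.3 CPM in SW480, from 49.4 to 71.1 CPM in SW480-B and from 59.7 to 63.3 CPM in SW480-gRNA-B-all. The HOXD sum was the smallest, with 10.7 to 34.7 CPM in SW480, 10.6 to 24.2 CPM in SW480-B and 20.5 to 32.5 CPM in SW480-gRNA-B-all. These sums are descriptions and were not tested.

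The first comparison asked how HOX use differs between SW480-gRNA-B-all, in which endogenous BASP1 is activated, and SW480. HOXD10 and HOXD11, neighbours in the HOXD cluster, rose, and HOXA9, HOXA10 and HOXA5 fell. Under edgeR's quasi-likelihood test a gene was called at a Benjamini-Hochberg adjusted p under 0.05 over all genes tested and a change above 2-fold. Of 33 HOX genes tested, 2 were called higher, against 1.89% of all 16100 genes tested, and 3 lower, against 4.66% (5 in either direction, against 6.55%), and 16 of the 33 had an unadjusted p under 0.05, against 28.4% of all genes. The HOX genes below the count filter were HOXB1, HOXC12, HOXD1, HOXD3, HOXD4 and HOXD12. The median log2 fold change of the 33 was 0.09 and that of all genes tested was −0.05, but the clusters differed: HOXA had 10 of 11 genes lower and a median of −1.18, HOXB had 9 of 9 higher and a median of 0.73, HOXC had 6 of 8 higher and a median of 0.28, and HOXD had 2 of 5 higher and a median of −0.05, which became 4 of 5 and 1.14 without SW480 replicate 1 and 4 of 5 and 0.33 without SW480-gRNA-B-all replicate 3. With RLE size factors in place of TMM, HOXA still had 10 of 11 lower and HOXB 9 of 9 higher. With no count filter, HOXD had 6 of 9 higher and a median of 0.60. The 5 calls rested on particular libraries: none of the 33 was called without SW480 replicate 2, without SW480-gRNA-B-all replicate 2, without SW480-gRNA-B-all replicate 3, or with these last 2 libraries summed, whereas 5 were called higher and 6 lower without SW480 replicate 3, and 1 higher and 1 lower without SW480-gRNA-B-all replicate 1. Calls over all genes moved likewise: in the fits with no HOX call 0.00606% to 0.119% of genes were called higher and 0.0424% to 0.458% lower, and without SW480 replicate 3 these shares were 5.70% and 10.1%.

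HOXD10, a posterior gene of limb and lumbar motor neuron patterning, was at 2.13, 2.41 and 2.00 CPM in SW480, 6.49, 2.25 and 2.90 CPM in SW480-B and 10.9, 9.65 and 10.6 CPM in SW480-gRNA-B-all. All 3 libraries of SW480-gRNA-B-all were above every library of the other lines, and SW480-B replicate 1 stood apart from its own line. Against SW480 the log2 fold change was 2.24 (SE 0.25, edgeR adjusted p = 0.00803), it ranged from 2.20 to 2.35 as single libraries were left out, and the call held in 3 of those 6 fits. HOXD11, which acts in forearm and kidney development, was at 0.792, 0.517 and 0.618 CPM in SW480, 2.05, 0.428 and 0.389 CPM in SW480-B and 2.20, 2.70 and 2.71 CPM in SW480-gRNA-B-all. Again the SW480-gRNA-B-all libraries were the highest, with SW480-B replicate 1 next. The log2 fold change of HOXD11 against SW480 was 1.97 (SE 0.35, edgeR adjusted p = 0.0242), and the call held in 2 of the 6 fits that left out a library. HOXD10 and HOXD11 share exon bases. How fragments on shared bases were assigned is not given, beyond an ambiguous class that was left out of the counts.

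HOXA9, known for its part in blood progenitors and in leukaemia, was at 67.3, 61.9 and 62.6 CPM in SW480, 42.8, 35.4 and 56.0 CPM in SW480-B and 17.5, 24.3 and 23.1 CPM in SW480-gRNA-B-all. The 3 lines did not overlap. Against SW480 it fell by 1.57 on the log2 scale in SW480-gRNA-B-all (SE 0.18, edgeR adjusted p = 0.00872), with a range of −1.65 to −1.43 over the fits without 1 library, 3 of 6 of which kept the call. HOXA10, which patterns the uterus and the lumbar region, was at 37.6, 40.8 and 33.8 CPM in SW480, 24.1, 15.9 and 22.3 CPM in SW480-B and 12.2, 18.7 and 19.0 CPM in SW480-gRNA-B-all. All 6 libraries of the modified lines were below the lowest SW480 library, and those 2 lines overlapped. The log2 fold change of HOXA10 against SW480 was −1.18 in SW480-gRNA-B-all (SE 0.22, edgeR adjusted p = 0.0290), and 2 of 6 fits without 1 library kept the call. HOXA5, needed for lung development, was at 11.4, 10.4 and 8.18 CPM in SW480, 14.3, 3.78 and 8.09 CPM in SW480-B and 3.49, 3.87 and 5.51 CPM in SW480-gRNA-B-all. For HOXA5 the log2 fold change against SW480 was −1.23 (SE 0.29, edgeR adjusted p = 0.0487). That call was the least stable of the 5, kept in 1 of 6 fits without 1 library and lost when replicate numbers entered the fit as a block (adjusted p = 0.0753).

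**Figure D2:**
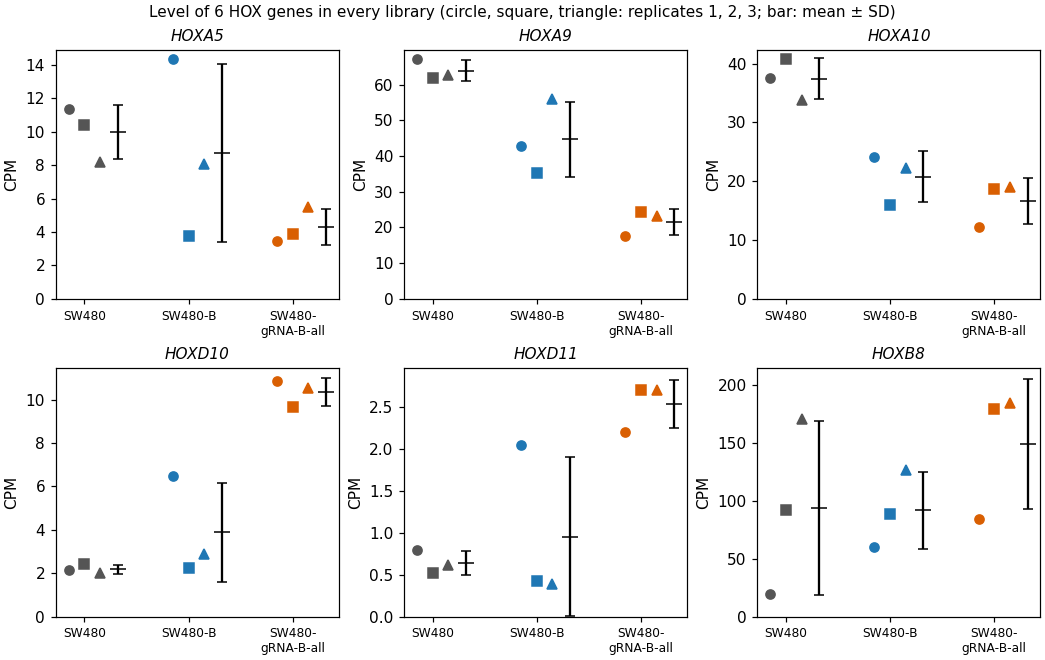
CPM of the 5 called HOX genes and of HOXB8 in every library of the 3 lines, each panel on its own axis from 0, with the mean and SD beside the points. HOXA9 falls into 3 separate ranges, HOXD10 is between 9.65 and 10.9 CPM in SW480-gRNA-B-all against 2.00 to 2.41 CPM in SW480, and HOXB8 spreads from 20.0 to 170 CPM within SW480 alone.

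Other HOXA genes from HOXA3 to HOXA7 lay lower in SW480-gRNA-B-all without passing the test. Ranges in CPM that did not overlap with SW480 and lay below it were seen for 7 of 11 HOXA genes, HOXA3 to HOXA7, HOXA9 and HOXA10, and over all genes tested this held for 20.0%. HOXA3, which acts in thymus and parathyroid development, was at 11.9, 11.6 and 6.98 CPM in SW480, 9.43, 7.13 and 5.90 CPM in SW480-B and 1.93, 4.77 and 4.11 CPM in SW480-gRNA-B-all (log2 fold change −1.51 against SW480, SE 0.41, edgeR adjusted p = 0.0690). HOXA4 was at 2.27, 1.52 and 1.35 CPM in SW480, 1.31, 0.713 and 0.707 CPM in SW480-B and 0.136, 0.401 and 0.735 CPM in SW480-gRNA-B-all (−2.01, SE 0.59, adjusted p = 0.0824). HOXA4 libraries of SW480-gRNA-B-all thus ended close to the floor in replicate 1. HOXA6 was at 6.30, 4.75 and 3.56 CPM in SW480, 7.27, 2.10 and 3.18 CPM in SW480-B and 1.69, 2.67 and 2.44 CPM in SW480-gRNA-B-all (−1.11, SE 0.35, adjusted p = 0.0967). HOXA7, the HOXA gene with the highest level per kb in SW480, was at 48.8, 57.1 and 68.1 CPM in SW480, 35.0, 35.3 and 29.3 CPM in SW480-B and 20.9, 39.4 and 37.2 CPM in SW480-gRNA-B-all (−0.84, SE 0.27, adjusted p = 0.10). Both modified lines were below SW480 for HOXA7, with overlap between them.

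The HOXA genes beyond HOXA10 differed less between SW480-gRNA-B-all and SW480, with log2 fold changes of −0.22 for HOXA11 and −0.77 for HOXA13. HOXA11, which acts in kidney and uterus, was at 14, 13.3 and 18.8 CPM in SW480, 18.1, 18.9 and 18.0 CPM in SW480-B and 10.5, 13.9 and 15.3 CPM in SW480-gRNA-B-all. HOXA13, a gene of the hindgut and the digits, was at 3.37, 6.82 and 8.29 CPM in SW480, 4.45, 2.42 and 5.80 CPM in SW480-B and 1.97, 4.81 and 4.14 CPM in SW480-gRNA-B-all. Neither was called in this comparison, and the ranges of SW480 and SW480-gRNA-B-all overlapped for both. Against SW480-B the SW480-gRNA-B-all range of HOXA11 lay lower without overlap, which held for 15.4% of all genes tested. HOXA2, which patterns the pharyngeal arches, had 8 to 36 counts in the 9 libraries.

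**Figure D3:**
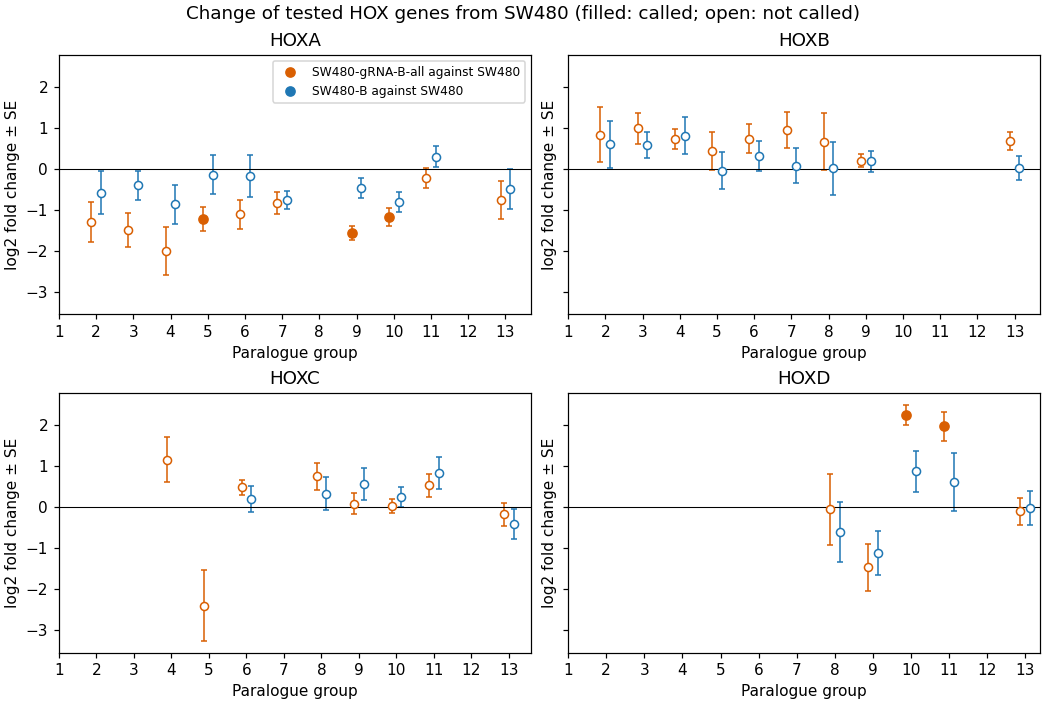
Log2 fold change with SE of the tested HOX genes described here by paralogue group, 1 panel per cluster, for SW480-gRNA-B-all (orange) and SW480-B (blue) against the same SW480 libraries; filled points passed both thresholds. The HOXA points of SW480-gRNA-B-all from HOXA2 to HOXA10 lie below 0, the HOXB points lie above 0, and HOXD10 (2.24) and HOXD11 (1.97) are the highest points in any panel.

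In HOXB no gene was called, although 9 of 9 tested genes had positive estimates in SW480-gRNA-B-all. HOXB8, which acts in myeloid progenitors, varied widely within a line and was at 20.0, 92.1 and 170 CPM in SW480, 60.4, 88.7 and 126 CPM in SW480-B and 84.0, 179 and 184 CPM in SW480-gRNA-B-all. HOXB7 was at 30.8, 38.5 and 88.4 CPM in SW480, 47.3, 37.5 and 76.4 CPM in SW480-B and 66.0, 123 and 116 CPM in SW480-gRNA-B-all. HOXB6 was at 62.5, 81.1 and 147 CPM in SW480, 126, 81.7 and 141 CPM in SW480-B and 117, 176 and 190 CPM in SW480-gRNA-B-all. For these 3 genes SW480 replicate 3 was as high as libraries of SW480-gRNA-B-all, so the lines overlapped. HOXB9 overlapped between the 3 lines as well and was at 106, 97.5 and 83.4 CPM in SW480, 132, 111 and 73.6 CPM in SW480-B and 117, 106 and 108 CPM in SW480-gRNA-B-all. HOXB5 was at 15.4, 38.3 and 57.1 CPM in SW480, 24.0, 33.4 and 46.9 CPM in SW480-B and 32.9, 58.4 and 59.7 CPM in SW480-gRNA-B-all. The spread of HOXB5 within SW480 exceeded the gap between the line means.

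HOXB3 was at 56.7, 84.8 and 140 CPM in SW480, 152, 124 and 133 CPM in SW480-B and 122, 210 and 225 CPM in SW480-gRNA-B-all (log2 fold change 0.98 against SW480, SE 0.37, edgeR adjusted p = 0.145). A block by replicate number made HOXB3 pass (1.03, adjusted p = 0.0328). HOXB4, known for expanding blood stem cells, was at 15.1, 24.6 and 25.5 CPM in SW480, 64.7, 22.8 and 22.9 CPM in SW480-B and 31.4, 36.9 and 40.5 CPM in SW480-gRNA-B-all (0.73, SE 0.24, adjusted p = 0.106). The 3 SW480-gRNA-B-all libraries lay above SW480, and SW480-B replicate 1 above them all. HOXB2 was at 4.37, 8.86 and 23.7 CPM in SW480, 12.8, 16.0 and 25.4 CPM in SW480-B and 9.55, 27.4 and 28.9 CPM in SW480-gRNA-B-all. HOXB13, a gene of prostate and tail, separated from its cluster by a gap, was at 9.23, 9.10 and 11.2 CPM in SW480, 10.6, 8.30 and 10.1 CPM in SW480-B and 12.6, 17.3 and 17.1 CPM in SW480-gRNA-B-all (0.67, SE 0.22, adjusted p = 0.108). HOXB4 and HOXB13 were the HOXB genes whose SW480-gRNA-B-all range lay above SW480 without overlap, which held for 18.0% of all genes tested.

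HOXC genes were at low to moderate levels and none was called. HOXC10, a gene of lumbar motor neurons, was even across libraries, at 17.6, 18.3 and 18.4 CPM in SW480, 20.5, 24.2 and 18.0 CPM in SW480-B and 18.3, 18.8 and 18.3 CPM in SW480-gRNA-B-all. HOXC6 was at 11.9, 12.3 and 12 CPM in SW480, 18.4, 12.9 and 9.19 CPM in SW480-B and 14.8, 19.1 and 16.8 CPM in SW480-gRNA-B-all (0.48, SE 0.19, edgeR adjusted p = 0.159). HOXC8, of brachial motor neurons, was at 3.96, 7.79 and 8.84 CPM in SW480, 11.2, 6.49 and 7.42 CPM in SW480-B and 11.7, 11.6 and 11.5 CPM in SW480-gRNA-B-all. The SW480-gRNA-B-all libraries were above SW480 for both HOXC6 and HOXC8. HOXC9, of thoracic motor neurons, was at 5.58, 5.27 and 5.53 CPM in SW480, 12.2, 5.31 and 6.01 CPM in SW480-B and 6.94, 5.17 and 5.34 CPM in SW480-gRNA-B-all. HOXC11 was at 2.65, 2.27 and 3.24 CPM in SW480, 4.99, 3.49 and 5.62 CPM in SW480-B and 3.93, 4.11 and 3.77 CPM in SW480-gRNA-B-all. HOXC11 libraries of both modified lines thus lay above every SW480 library. HOXC13, a regulator of hair keratins, was at 4.58, 3.79 and 3.60 CPM in SW480, 3.05, 3.28 and 2.47 CPM in SW480-B and 3.79, 3.84 and 3.04 CPM in SW480-gRNA-B-all. HOXC4 (0 to 24 counts), HOXC5 (0 to 14) and HOXC12 (1 to 10) had few reads. The counts of HOXC5 may be too low, because most of its exon bases belong also to other genes. HOXC5 was at 0.448, 0.482 and 0.364 CPM in SW480 and at 0.203, 0 and 0.0334 CPM in SW480-gRNA-B-all, without overlap, and was not called (edgeR adjusted p = 0.127). HOXC4 reached 0.601 and 0.801 CPM in SW480-gRNA-B-all replicates 2 and 3. Of 8 HOXC genes tested, 3 (HOXC6, HOXC8 and HOXC11) had a SW480-gRNA-B-all range above SW480 without overlap, against 18.0% of all genes tested. In the other direction 1 of 8, HOXC5, lay below, against 20.0%.

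The other tested HOXD genes, HOXD8, HOXD9 and HOXD13, did not follow HOXD10 and HOXD11. HOXD9 was at 17.6, 8.99 and 4.18 CPM in SW480, 5.88, 4.99 and 2.93 CPM in SW480-B and 5.49, 3.44 and 2.24 CPM in SW480-gRNA-B-all (−1.47 against SW480, SE 0.58, edgeR adjusted p = 0.153). HOXD8 was at 10.3, 2.89 and 1.35 CPM in SW480, 4.91, 2.28 and 2.08 CPM in SW480-B and 9.38, 2.70 and 2.00 CPM in SW480-gRNA-B-all. For both genes replicate 1 was the highest of its line in each of the 3 lines. HOXD9 was lower in both modified lines than in SW480 at each replicate number, with ranges that overlapped. HOXD13, a digit and hindgut gene, was at 3.62, 2.41 and 2.33 CPM in SW480, 3.4, 2.67 and 1.91 CPM in SW480-B and 3.15, 2.47 and 2.17 CPM in SW480-gRNA-B-all, and the ranges of the 3 lines overlapped. HOXD1 (1 to 11 counts), HOXD3 (0 to 29) and HOXD12 (0 to 15) had few reads and were below the count filter. Their means were 0.163, 0.115 and 0.0925 CPM in SW480 and 0.246, 0.506 and 0.234 CPM in SW480-gRNA-B-all, near the floor. Of the 30 genes above 1 CPM, replicate 1 was the lowest library of its line in all 3 lines for genes that included HOXB2, HOXB5 and HOXB8, and the highest for HOXB9, HOXC9, HOXD8, HOXD9 and HOXD13.

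The second comparison set SW480-B, with BASP1 from a plasmid, against SW480. No HOX gene was called of 31 tested, against 1.34% of 16106 genes (0.0931% higher and 1.25% lower). DESeq2 called none either, and 2 of the 31 had an unadjusted edgeR p under 0.05, against 15.8% of all genes: HOXA7, with a log2 fold change of −0.77 (SE 0.22, adjusted p = 0.157), and HOXA10, with −0.81 (SE 0.25, adjusted p = 0.183). HOXA9 had −0.48 (SE 0.24, adjusted p = 0.373). In CPM, the SW480-B range lay below SW480 without overlap for HOXA4, HOXA7, HOXA9, HOXA10 and HOXC13, against 11.8% of all genes tested, and above it for HOXC11, against 10.6%. By cluster the estimates were lower for 9 of 11 HOXA genes (median −0.48), higher for 8 of 9 HOXB genes (median 0.18), higher for 5 of 6 HOXC genes and higher for 2 of 5 HOXD genes. The HOXB count moved to 6 of 9 with RLE size factors, to 9 of 9 with replicates paired (median 0.35), to 9 of 9 without SW480 replicate 3 (median 0.73), and to 5 of 9 without SW480 replicate 1 (median 0.06), without SW480 replicate 2 or without SW480-B replicate 3. HOXD became 4 of 5 higher without SW480 replicate 1 (median 0.57), 3 of 5 without SW480-B replicate 3 (median 0.15) and 1 of 5 without SW480-B replicate 1 (median −0.61). Both comparisons use the same SW480 libraries, so their estimates are not independent: for HOXA9 they were −1.57 for the guide RNA line and −0.48 for the plasmid clone, for HOXA10 −1.18 and −0.81, for HOXA5 −1.23 and −0.15, for HOXD10 2.24 and 0.87, and for HOXD11 1.97 and 0.60.

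The third comparison set SW480-gRNA-B-all against SW480-B. HOXA9 stood lower where guides raised BASP1 than where the plasmid did, with a log2 fold change of −1.05 (SE 0.23, edgeR adjusted p = 0.0264). It was the 1 HOX gene called of 31 tested, with 0 higher (6.68% of 15846 genes were called, 2.31% higher and 4.37% lower), and 7 of the 31 had an unadjusted p under 0.05, against 24.4% of all genes. The HOXA9 call was kept in 1 of 6 fits without 1 library, that without SW480-B replicate 2, and was lost with SW480-gRNA-B-all replicates 2 and 3 summed (adjusted p = 0.0964). HOXD10 had a log2 fold change of 1.41 (SE 0.40, adjusted p = 0.0659), which passed under a block by replicate number (1.56, adjusted p = 0.0178) and without SW480-B replicate 1. Replicate number 2 did not pair the libraries of these lines, which limits the block. Estimates were lower for 11 of 11 HOXA genes (median −0.84) and higher for 8 of 9 HOXB genes (median 0.47), 3 of 6 HOXC genes and 3 of 5 HOXD genes (median 0.60). Without SW480-gRNA-B-all replicate 1, HOXA had 9 of 11 lower and HOXD 2 of 5 higher (median −0.18). HOXD had 3 of 7 higher without SW480-B replicate 3 (median −0.18) and 4 of 5 without SW480-B replicate 1 (median 1.10). HOXB had 7 of 9 higher without SW480-B replicate 3.

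The promoters of HOXA9, HOXA10, HOXD10 and HOXD11 are shown because these neighbours moved in pairs and in opposite directions. Each run is the 250 bases before a RefSeq transcript start on GRCh38.p14 (another build than that of the counts), 5′ to 3′ along the gene, with matches to searched letters in capitals. HOXA10 has more than 1 start.

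HOXA9 at chr7:27165538-27165787, minus strand: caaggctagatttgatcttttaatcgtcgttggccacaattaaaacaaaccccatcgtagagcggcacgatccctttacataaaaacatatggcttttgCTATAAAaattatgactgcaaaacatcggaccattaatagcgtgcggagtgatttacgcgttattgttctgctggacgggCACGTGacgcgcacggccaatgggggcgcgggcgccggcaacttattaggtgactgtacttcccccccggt

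HOXA10 at chr7:27174321-27174570, minus strand: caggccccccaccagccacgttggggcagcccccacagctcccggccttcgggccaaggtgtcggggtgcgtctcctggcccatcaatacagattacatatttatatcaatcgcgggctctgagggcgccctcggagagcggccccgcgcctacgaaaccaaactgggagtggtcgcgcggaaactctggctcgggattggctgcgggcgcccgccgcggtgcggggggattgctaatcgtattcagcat

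HOXA10 at chr7:27179862-27180111, minus strand: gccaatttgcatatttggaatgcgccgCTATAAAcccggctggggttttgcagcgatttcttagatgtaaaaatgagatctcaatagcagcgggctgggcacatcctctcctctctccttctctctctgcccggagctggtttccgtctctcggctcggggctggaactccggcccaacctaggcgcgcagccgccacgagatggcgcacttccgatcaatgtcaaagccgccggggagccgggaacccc

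HOXD10 at chr2:176116528-176116777, plus strand: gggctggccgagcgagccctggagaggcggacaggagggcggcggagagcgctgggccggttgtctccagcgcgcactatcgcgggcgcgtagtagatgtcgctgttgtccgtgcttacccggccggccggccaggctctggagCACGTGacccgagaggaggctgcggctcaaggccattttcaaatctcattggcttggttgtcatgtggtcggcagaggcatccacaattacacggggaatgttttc

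HOXD11 at chr2:176107030-176107279, plus strand: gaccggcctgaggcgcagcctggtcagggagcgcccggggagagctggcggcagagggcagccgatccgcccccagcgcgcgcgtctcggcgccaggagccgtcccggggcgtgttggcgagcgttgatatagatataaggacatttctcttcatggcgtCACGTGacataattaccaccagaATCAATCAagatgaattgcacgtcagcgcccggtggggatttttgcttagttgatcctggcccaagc

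Both strands of these windows were searched for a CDX motif (TTTATNG), a TCF/LEF motif (CTTTGAT), an E-box (CACGTG) and a PBX-HOX motif (TGATNNAT). CTATAAA, the reverse-strand match of the CDX motif, stands in the HOXA9 window and in 1 of the 2 HOXA10 windows, and these letters also hold those of a TATA box. CACGTG stands in the HOXA9, HOXD10 and HOXD11 windows, and ATCAATCA, a PBX-HOX match, in the HOXD11 window. In all, 20 of the 39 HOX genes had a window in the table, with 27 windows between them: 7 of the 27 matched the CDX motif, which 8.93% of all 35116 windows hold, 8 the E-box (6.34%), 3 the PBX-HOX motif (6.47%) and 0 the TCF/LEF motif (2.26%). A match is a run of letters and not a bound site.

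CDX2 and GSX1, of a list of CDX and ParaHox genes that are relatives of the HOX genes outside the clusters, changed more in SW480-gRNA-B-all than any HOX gene called there. CDX2, the intestinal master regulator that lies upstream of posterior HOX genes in development, was at 30.4, 30.7 and 41.9 CPM in SW480, 58.6, 67.4 and 58.2 CPM in SW480-B and 5.52, 2.70 and 2.37 CPM in SW480-gRNA-B-all. It was thus highest in SW480-B and lowest in SW480-gRNA-B-all, with no overlap between any 2 lines. CDX2 fell by 3.28 on the log2 scale against SW480 (SE 0.38, edgeR adjusted p = 0.00896; 3 of 6 fits without 1 library kept the call) and by 4.12 against SW480-B (SE 0.34, adjusted p = 0.000995; 6 of 6). GSX1, a neural ParaHox gene, had 50 counts in SW480, 159 in SW480-B and 1 in SW480-gRNA-B-all. Per count on genes the SW480 to SW480-gRNA-B-all ratio was 49.5 (95% exact interval 8.48 to 1990, counting error only) and the SW480-B to SW480-gRNA-B-all ratio was 165 (29.1 to 6550), and the gene was called lower in both comparisons. PDX1 was at 2.62, 2.96 and 6.07 CPM in SW480, 5.53, 5.92 and 7.63 CPM in SW480-B and 3.62, 2.34 and 2.64 CPM in SW480-gRNA-B-all, and fell by 1.15 against SW480-B (SE 0.29, edgeR adjusted p = 0.0452), a call kept in 1 of 6 fits without 1 library. CDX1, CDX4 and GSX2 were not tested, with CDX4 at 0 in every library. Whether the change in CDX2 had a part in those of the HOX genes was not tested.

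Genes inside or beside the clusters that are not HOX genes included calls in both modified lines. EVX1, a homeobox gene outside the HOXA cluster on the side of HOXA13, was at 3.92, 2.17 and 1.20 CPM in SW480, 0.0773, 0.0713 and 0.212 CPM in SW480-B and 0.0677, 0.167 and 0 CPM in SW480-gRNA-B-all, at or near the floor in both. EVX1 had a log2 fold change of −4.24 in SW480-B (SE 0.71, edgeR adjusted p = 0.0332) against SW480, and −4.89 in the guide RNA line (SE 0.89, adjusted p = 0.0264). HAGLR, a long noncoding RNA of the HOXD cluster, was at 5.09, 9.61 and 8.88 CPM in SW480, 30.1, 29.7 and 22.6 CPM in SW480-B and 34.9, 26.7 and 25.6 CPM in SW480-gRNA-B-all. HAGLR rose by 1.84 (SE 0.32, adjusted p = 0.0358) and 1.88 (SE 0.29, adjusted p = 0.0182) on the log2 scale. For EVX1 and HAGLR each of these calls was kept in 2 of 6 fits without 1 library, those without SW480 replicate 1 or 3, with edgeR adjusted p up to 0.227 in the others. HOTAIR, the long noncoding RNA of the HOXC cluster that is known for binding Polycomb proteins, was at 5.27, 12.3 and 25.4 CPM in SW480, 30.5, 26.1 and 24.1 CPM in SW480-B and 25.4, 32.8 and 35.1 CPM in SW480-gRNA-B-all, and was not called. Of 17 such genes tested for SW480-gRNA-B-all and the parental line, 1 was called higher (1.89% of all genes) and 1 lower (4.66%), with a median of 0.47. Of 16 in SW480-B against SW480, 1 was called higher (0.0931% of all genes) and 1 lower (1.25%), with a median of 0.39, and in SW480-gRNA-B-all against SW480-B none was, with 4 of 16 at an unadjusted p under 0.05 (24.4% of all genes).

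The clusters also carry microRNA genes of the miR-196 family, known for targeting HOX transcripts such as that of HOXB8. Members of the family share a seed, shown in capitals (bases 2 to 8).

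hsa-miR-196a-5p: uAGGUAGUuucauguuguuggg

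hsa-miR-196b-5p: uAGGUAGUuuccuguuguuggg

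MIR196A1, in HOXB, had 16, 14 and 14 counts in SW480, 52, 18 and 11 in SW480-B and 41, 30 and 25 in SW480-gRNA-B-all. MIR196B, in HOXA, and MIR10B, in HOXD, had 0 counts in every library, and MIR196A2 and MIR615, in HOXC, had at most 1. MIR196B shares exon bases with HOXA9 on the same strand, and ambiguous fragments were left out. Its 0 therefore does not tell whether a transcript covers it. These poly(A) libraries record long transcripts over the microRNA genes and do not measure mature microRNAs.

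**Figure D4:**
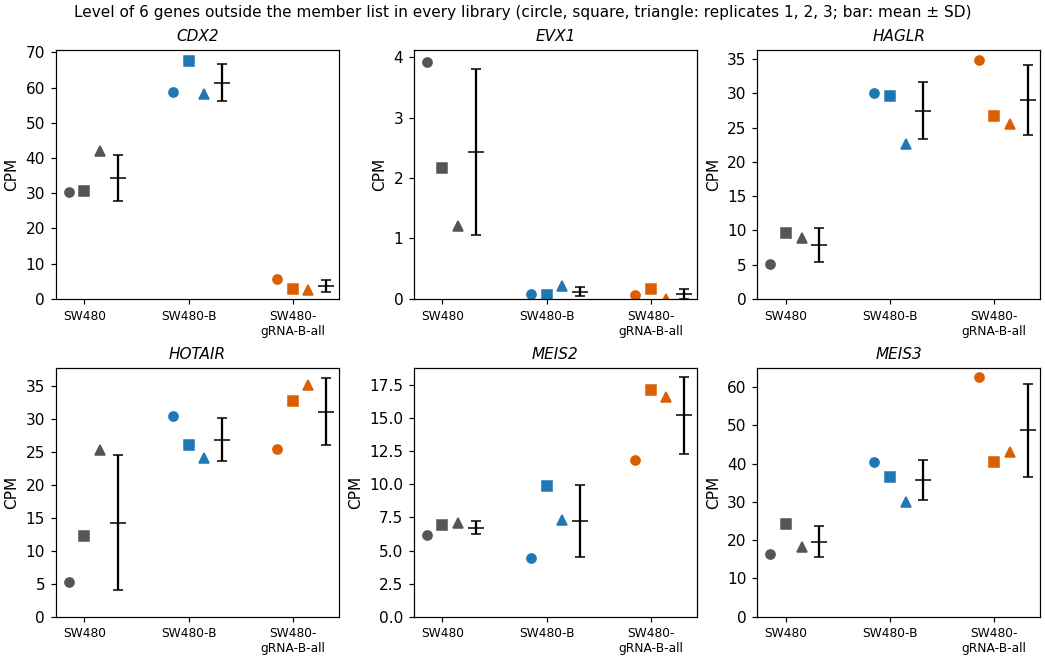
CPM of 6 genes outside the HOX members in every library, each panel on its own axis from 0, with the mean and SD beside the points. CDX2 is at 2.37 to 5.52 CPM in SW480-gRNA-B-all against 58.2 to 67.4 CPM in SW480-B, EVX1 is near 0 in both modified lines, and HAGLR, at 22.6 to 34.9 CPM in both, lies above SW480.

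The TALE cofactors, which bind DNA together with HOX proteins, rose in 2 of 10 tested members in SW480-gRNA-B-all against SW480, where 1.89% of all genes were called higher. MEIS2 was at 6.20, 6.93 and 7.09 CPM in SW480, 4.45, 9.91 and 7.32 CPM in SW480-B and 11.8, 17.1 and 16.6 CPM in SW480-gRNA-B-all, and rose by 1.17 on the log2 scale against SW480 (SE 0.23, edgeR adjusted p = 0.0331). MEIS3 was at 16.4, 24.2 and 18.3 CPM in SW480, 40.5, 36.4 and 30.0 CPM in SW480-B and 62.7, 40.4 and 43.0 CPM in SW480-gRNA-B-all, and rose by 1.30 in SW480-gRNA-B-all (SE 0.25, adjusted p = 0.0291). Both calls were kept in 2 of 6 fits, those without SW480 replicate 1 or 3, and missed the threshold in the others (edgeR adjusted p up to 0.159 for MEIS2 and 0.0979 for MEIS3). The SW480-gRNA-B-all range lay above both other lines for MEIS2 and above SW480 for MEIS3, which overlapped SW480-B. MEIS1 was at 4.54, 3.69 and 2.69 CPM in SW480, 1.24, 1.89 and 2.19 CPM in SW480-B and 2.00, 2.87 and 2.87 CPM in SW480-gRNA-B-all. PBX3 was between 12.1 and 24.5 CPM in all 9 libraries. Against SW480 the list's median log2 fold change was −0.15 for the guide RNA line and −0.13 for the plasmid clone, with no TALE gene called in SW480-B against SW480 (3 of 10 at an unadjusted p under 0.05, against 15.8% of all genes) or between the modified lines (4 of 10, against 24.4%).

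None of 29 Polycomb subunits was called by edgeR in any comparison, with 7, 5 and 4 of 29 at an unadjusted p under 0.05 in SW480-gRNA-B-all against SW480, SW480-B against SW480 and SW480-gRNA-B-all against SW480-B. Over all genes these shares were 28.4%, 15.8% and 24.4%. EZH2, the H3K27 methyltransferase, was at 99.7, 108 and 134 CPM in SW480, 108, 115 and 124 CPM in SW480-B and 65.5, 83.2 and 77.1 CPM in SW480-gRNA-B-all, below the other lines in each library. A lower range without overlap held for 20.0% of all genes tested against SW480 and for 15.4% against SW480-B. SUZ12, its partner, was between 101 and 144 CPM in the 9 libraries. Of 21 Trithorax and demethylase genes tested, KDM6A, which removes the Polycomb mark, fell by 1.02 on the log2 scale in SW480-gRNA-B-all against SW480 (SE 0.21, edgeR adjusted p = 0.0350), from 56.7, 50.5 and 41.4 CPM to 30.0, 22.0 and 21.6 CPM, a call kept in 1 of 6 fits, that without SW480 replicate 3 (adjusted p up to 0.155 in the others). KMT2A, the H3K4 methyltransferase that maintains HOX expression, was at 204, 212 and 153 CPM in SW480, 358, 135 and 158 CPM in SW480-B and 185, 168 and 176 CPM in SW480-gRNA-B-all. No other gene of that list was called in any comparison. Of 15 retinoid, CTCF and cohesin genes tested none was called in any comparison, with 3, 1 and 1 at an unadjusted p under 0.05 in the same order.

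Of 13 genes that flank the clusters, 1 was called in each comparison with SW480, where 6.55% (SW480-gRNA-B-all) and 1.34% (SW480-B) of all genes were called. CALCOCO1, on the HOXC side of chromosome 12, was at 40.0, 42.1 and 42.2 CPM in SW480, 166, 157 and 71.1 CPM in SW480-B and 191, 87.2 and 92.3 CPM in SW480-gRNA-B-all. It rose by 1.70 in SW480-B (SE 0.32, edgeR adjusted p = 0.0490) and by 1.57 in SW480-gRNA-B-all (SE 0.32, adjusted p = 0.0345) on the log2 scale. Each CALCOCO1 call was kept in 2 of 6 fits without 1 library, with edgeR adjusted p up to 0.241 for SW480-B and 0.125 for SW480-gRNA-B-all. SKAP2, on the HOXA side, was at 95.7, 88.0 and 77.7 CPM in SW480, 70.3, 82.0 and 67.0 CPM in SW480-B and 37.6, 58.6 and 57.5 CPM in SW480-gRNA-B-all, and was not called. As markers of the label, VIL1, a brush-border gene, was at 344, 308 and 98.8 CPM in SW480, 29.6, 35.9 and 30.2 CPM in SW480-B and 21.5, 6.81 and 6.34 CPM in SW480-gRNA-B-all, and was called lower in both lines against SW480. The 9 colon epithelium markers summed to 7560 to 9530 CPM in SW480, 6200 to 10200 CPM in SW480-B and 5780 to 7300 CPM in SW480-gRNA-B-all. KRT8 and KRT18, with means of 4925 and 2720 CPM in SW480, made up most of this sum, which therefore says little about the other markers. All 6 colon markers tested had negative estimates when the guide RNA line was set beside the parental line (median log2 fold change −0.75). VIL1 (−4.44) and CDX2 (−3.28) were the 2 called. For the plasmid clone 4 of the 6 estimates were positive, those of KRT18 (0.002), KRT8 (0.012), CDH1 (0.101) and CDX2 (0.875). The 2 negative ones were EPCAM (−0.947) and VIL1 (−2.935), and of the 6 only VIL1 was called. The 6 fibroblast markers summed to 2.26 to 10.7 CPM, the 4 immune markers to 0.413 to 2.87 CPM and the endothelial markers VWF and CDH5 to 0.689 to 4.33 CPM over the 9 libraries. Within the fibroblast list LUM was at 6.47, 2.10 and 0.982 CPM in SW480 and had 0, 1 and 0 counts in SW480-B and 0 in each SW480-gRNA-B-all library, and it was called lower in both (edgeR adjusted p = 0.0276 and 0.0323, each kept in 2 of 6 fits without 1 library). COL1A1 was at 3.51, 4.20 and 4.37 CPM in SW480, 8.39, 4.03 and 2.26 CPM in SW480-B and 7.89, 9.45 and 10.7 CPM in SW480-gRNA-B-all, where it was called higher (1.21, SE 0.25, adjusted p = 0.0362, kept in 2 of 6 fits). COL3A1 was at 0 in every library. The part of these marker differences in the HOX differences was not tested.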

How the data were processed

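RNA-seq was done on 9 libraries of 3 SW480 lines. Per the labels and methods, stranded poly(A) libraries were sequenced in pairs and aligned to GRCh37 with Ensembl genes, and the authors deposited raw counts per gene, 1 file per library, with 5.22% to 9.93% of fragments on no gene and 3.09% to 3.44% ambiguous. Both classes were dropped before library sizes were computed. The counting program is not given in the sources used here. The libraries share 1 batch date, and a treatment label common to all, parental line included, was not used for grouping, which came from the sample titles.

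Gene positions and exon lengths came from GENCODE for GRCh37, promoters and microRNAs from RefSeq (GRCh38.p14). CPM used TMM factors. Each pair of lines was tested with edgeR 4.0.16 in R 4.3.3 on genes passing filterByExpr (count 10, total 15), with a robust quasi-likelihood fit over 6 libraries; SE is the log2 fold change divided by the root of F. The scripts were tested on simulated data. DESeq2 1.42.0, RLE factors, other filters and thresholds, a fit of all 9 libraries, the replicate block, libraries left out and summed replicates were alternatives. The HOX members and the lists were chosen with earlier results of these data known. HOX genes of at least 1 CPM or called were named with every value, called genes of the companion lists and a few chosen regulators and markers with theirs; single genes of these lists are not reported here but stay in counts, medians and sums. KMT2B had 0 counts in every library, and whether this reflects its expression or how its gene was annotated and counted was not tested.

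Replicates of equal number deviated together in SW480-B and SW480 (r across genes of 0.290, 0.322 and 0.393), so the labels' numbers pair them there; in SW480-gRNA-B-all against SW480 they were 0.291, −0.0372 and 0.266, and number 2 did not pair.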

Additional observations from a re-analysis of the deposited data

Results flagged for a closer look

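The lines with raised BASP1 differed from each other in 4 of the described genes by edgeR's test of that difference. HOXA9 had −1.05 as the log2 value of SW480-gRNA-B-all over SW480-B, and it was the 1 HOX gene among them. CDX2 had −4.12, PDX1 had −1.15, and GSX1 had a fitted −6.99, which rests on 1 count in SW480-gRNA-B-all and depends on the prior count. CDX2 and GSX1 stayed called in 6 of 6 fits without 1 library, HOXA9 and PDX1 in 1 of 6 each.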

How the results depend on the processing

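For SW480-gRNA-B-all against SW480, the 2 HOX genes called higher became 1 in a fit of all 9 libraries, 0 with SW480-gRNA-B-all replicates 2 and 3 summed, and 0 to 5 with single libraries left out. The 3 called lower became 6 with DESeq2, 6 at an adjusted p under 0.1, 0 with those replicates summed, and 0 to 6 with single libraries left out. Over all genes tested, calls were 1.89% higher and 4.66% lower, 2.88% and 5.10% with DESeq2, 3.09% and 6.38% in the fit of all 9 libraries, 0.119% and 0.458% with the replicates summed, and 0.00606% to 5.70% and 0.0424% to 10.1% with single libraries left out. For SW480-gRNA-B-all against SW480-B, the 0 called higher became 1 with DESeq2, 1 at an adjusted p under 0.1, 1 with no filter, 1 with the replicate block, and 0 to 2 with single libraries left out. The 1 called lower became 2 with DESeq2, 2 at any fold, 0 with the replicates summed, and 0 to 1 with single libraries left out. Over all genes tested there, 2.31% higher and 4.37% lower became 1.93% and 3.54% with DESeq2, 1.74% and 3.07% with no filter, 3.18% and 5.59% with the block, and 0.863% and 1.87% with the replicates summed. For SW480-B against SW480, the 0 called higher became 0 to 1 with single libraries left out, and pairing replicates by a block changed no HOX call there. The block in SW480-gRNA-B-all against SW480 gave 3 higher and 2 lower. Replicate number 2 did not pair the libraries there or in SW480-gRNA-B-all against SW480-B. In SW480-B against SW480, HOXA5 turned to 0.21 without SW480-B replicate 2 (range −0.70 to 0.21) and HOXD11 to −0.61 without SW480-B replicate 1 (range −0.61 to 0.97). The causes were not tested, except that summed or left-out libraries leave fewer samples. Over 46 log2 fold changes of single genes and their alternatives (cluster counts are not among them), 469 values kept direction and side of the threshold, 98 no longer passed, 16 newly passed and 2 turned. With 3 libraries per line, changes near the floor of 0.102 to 0.119 CPM could not be resolved.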
